A study of Homo sapiens with 6 samples.

Results

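Interferon-stimulated genes are the genes whose transcription rises when a cell is exposed to interferon, and 44 of them were followed here. They were listed by name, as well-known targets of interferon, with earlier results of these data known; the STAT factors and the genes of antigen presentation were left out. Of the 44, 42 were found among the 33644 genes of the authors' deposited table, after Ensembl identifiers had been matched without version to gene symbols. IFIT5 and LY6E were not analysed here.

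Interferons bind receptors on the cell surface and activate the kinases JAK1 and TYK2. The kinases activate transcription factors that join IRF9 in a complex, which binds the interferon-stimulated response element in the promoters of target genes. The products of these genes bind viral RNA, block viral entry or translation, attach the ubiquitin-like protein ISG15 to other proteins, or dampen the response again. Lymphocytes and many other cells express a part of these genes at a basal level without added interferon.

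The labels describe RNA-seq of 6 samples. They comprise 3 samples of wild-type HEK293T, a line of human embryonic kidney origin with the SV40 large T antigen, and 3 of an alt-LAMA3 KO derivative of that line. All 6 are labelled day 0 with no treatment, and both lines were grown in DMEM with 10% fetal bovine serum and antibiotics. Whether the knockout is 1 clone, and whether samples of a group were separate cultures, is not stated in the sources used here, so the p-values may measure a technical spread. The values analysed are a single comparison of 2 groups that the header does not name, with no value for any sample. A positive log2 fold change means higher expression in what is here named the numerator group, and a negative one higher expression in the denominator group. Which of these is the knockout, if either is, cannot be told from the header.

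The markers in the authors' deposited table do not match the label of a kidney-derived line. Of 12 genes typical of HEK293 lines, 0 reached a mean normalized count of 72.0, the level that is 5 per 1000000 of the summed means. GATA3 came just under that level at 71.2, and NEFL, NEFM, SALL1, MYCN and TUBB2B were listed at 0. Of 12 T-lymphocyte markers, 10 reached 72.0, with CD8A at 27074 and IL2RA at 27989 in the authors' deposited table. Myeloid and plasmacytoid dendritic cell markers reached it in 2 of 8 (ITGAX and CD68), B-cell markers in 0 of 5 and NK-cell markers in 1 of 4 (NCAM1). There were 9 very low means each shared by 149 to 390 genes, where 1 read in 1 library gives 1 such value per library and 6 labelled samples would give 6. Genes at 3 of these means had positive fold changes, genes at 3 negative ones and genes at 3 a fold change of 0. IFNK, for example, had a mean of 0.117 and a fold change of 0. The mean normalized counts below, and the level of 72.0, may thus also average over libraries outside the comparison. This was not tested.

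The response element was looked for in the promoters of the members, since these genes are known to be controlled through it. The core searched was GAAANNGAAA, in which N is any base, on both strands and with overlaps allowed, in RefSeq promoters of GRCh38.p14 from 250 bases before to 50 bases after a start site. RefSeq promoters were matched for 34 members by symbol. MX2, IFIT2, OAS2, OASL, IFITM2, DHX58, USP18, IRF7, TRIM22 and LY6E have no entry in the table used. The core occurred in at least 1 promoter of 26 of the 34 members (76.5%), against 4.38% of all 27305 genes with a promoter. Per promoter, the shares were 31 of 46 for the members and 3.57% of all 35116. At least 2 matches in 1 promoter were found for 15 members, against 0.311% of all genes. The matches began from 196 bases before to 11 bases after the start site.

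The promoters of the 5 members with the largest falls that passed and a core within 200 bases before a start are shown, so that the element can be read in genes described below. MX2, which fell more, has no entry, and CMPK2 and HERC6, which fell more than EPSTI1 and IFI6, have no core in their windows. Each sequence shown runs 5′ to 3′ on the strand of its gene and ends at the base before the start site, and capitals mark the core. The windows lie at chr4:168480493-168480692 on the minus strand for DDX60L, chr21:41431850-41432049 on the plus strand for MX1, chr1:78620248-78620447 on the plus strand for IFI44L, chr13:42992242-42992441 on the minus strand for EPSTI1 and chr1:27672193-27672392 on the minus strand for IFI6.
DDX60L: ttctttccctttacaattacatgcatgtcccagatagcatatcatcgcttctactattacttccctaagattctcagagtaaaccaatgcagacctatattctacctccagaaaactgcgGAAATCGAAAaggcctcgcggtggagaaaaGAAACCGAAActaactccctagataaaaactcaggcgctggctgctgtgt
MX1: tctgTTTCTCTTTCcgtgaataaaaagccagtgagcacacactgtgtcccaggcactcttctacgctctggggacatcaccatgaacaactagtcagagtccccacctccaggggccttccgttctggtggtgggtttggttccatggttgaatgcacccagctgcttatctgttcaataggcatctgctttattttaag
IFI44L: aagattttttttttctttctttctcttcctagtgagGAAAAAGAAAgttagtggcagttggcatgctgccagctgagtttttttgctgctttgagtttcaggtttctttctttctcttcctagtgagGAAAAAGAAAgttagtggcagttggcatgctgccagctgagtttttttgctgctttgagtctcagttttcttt
EPSTI1: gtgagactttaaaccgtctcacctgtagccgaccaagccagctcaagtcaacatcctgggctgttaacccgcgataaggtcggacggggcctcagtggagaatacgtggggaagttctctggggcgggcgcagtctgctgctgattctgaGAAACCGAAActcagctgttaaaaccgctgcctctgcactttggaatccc
IFI6: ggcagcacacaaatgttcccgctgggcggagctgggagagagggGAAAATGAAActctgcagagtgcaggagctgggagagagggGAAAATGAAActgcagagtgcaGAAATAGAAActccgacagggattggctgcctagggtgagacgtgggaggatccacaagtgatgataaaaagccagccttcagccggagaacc
DDX60L and EPSTI1 share the form GAAACCGAAA, placed 50 bases before the start in both. DDX60L holds a further match of another form 80 bases before its start. IFI6 holds 3 matches of the core, at 156, 115 and 93 bases before the start, and IFI44L holds 2 of one form, at 164 and 73 bases. For MX1, RefSeq gives 3 start sites. The one shown, the third along the gene, was chosen after the matches were seen because its match lies upstream, 196 bases away and in the opposite orientation, whereas that of the first start lies 11 bases after it.

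PARP9 and DTX3L are transcribed away from each other on chromosome 3 and share 1 copy of the core, from 122564332 to 122564341. It is shown with 10 bases on each side (chr3:122564322-122564351, GRCh38.p14), as read in the direction of each gene, since the pair differed widely in level.
DTX3L: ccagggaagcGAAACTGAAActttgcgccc
PARP9: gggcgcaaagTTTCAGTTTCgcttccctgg
The match begins 6 bases before the start of DTX3L and 41 bases before the second of the RefSeq starts of PARP9. The map of the core shows these distances for every member with an entry.

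**Figure D1:**
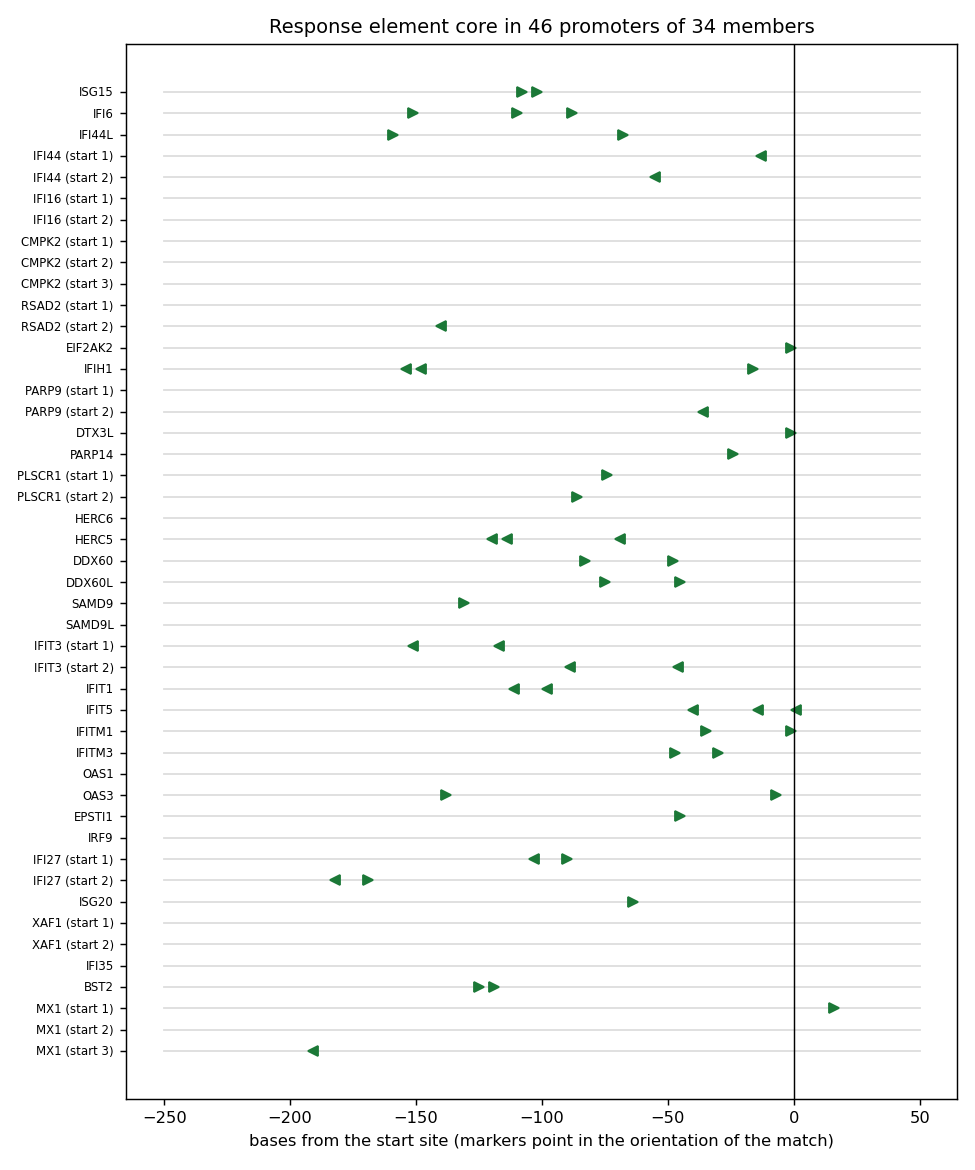
Positions of the response element core in 46 RefSeq promoters of 34 members, in bases from the start site (x axis), with 1 row per promoter. Each triangle is 1 match and points in its orientation; 26 members have at least 1 match, nearly all before the start, and 8 members (IFI16, CMPK2, HERC6, SAMD9L, OAS1, IRF9, XAF1 and IFI35) have none.

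Levels were compared between members per kilobase of annotated exons (GENCODE 29), as a mean over all libraries. Their spread over samples is not known, so neighbours in the order cannot be told apart. In the authors' deposited table the means behind these levels range from 2.19 for DTX3L to 11002 for IFI16. IFI16, a nuclear DNA sensor, stood highest with a mean normalized count of 2078 per kilobase, computed from the authors' deposited table. IFITM2 followed at 1174 per kilobase, OAS2 at 557, IRF9 at 230 and SAMD9L at 206, from the same table. At the other end DTX3L was at 0.373 and DDX60 at 0.394 per kilobase. IFIT1 and ISG15 were listed at 0, as were 3147 of 18522 protein-coding genes; whether a 0 marks an absent mRNA or reads that were not counted is not known.

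Members that sit next to each other in the genome often differed widely in level. OAS2 and OAS3 lie 5.15 kilobases apart on chromosome 12, and the level of OAS2 per kilobase was 77.4 times that of OAS3. DDX60L was 75.4 times as high as DDX60, PARP9 333 times as high as DTX3L, with which it shares its promoter region, and CMPK2 32.1 times as high as RSAD2, which is transcribed from the opposite strand beside it. DDX60, DTX3L and RSAD2 had means of only 2.66, 2.19 and 8.76 in the authors' deposited table, so these ratios are uncertain. Whether reads of these genes were left uncounted is not known. HERC6 and HERC5 were close, with a ratio of 1.48.

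**Figure D2:**
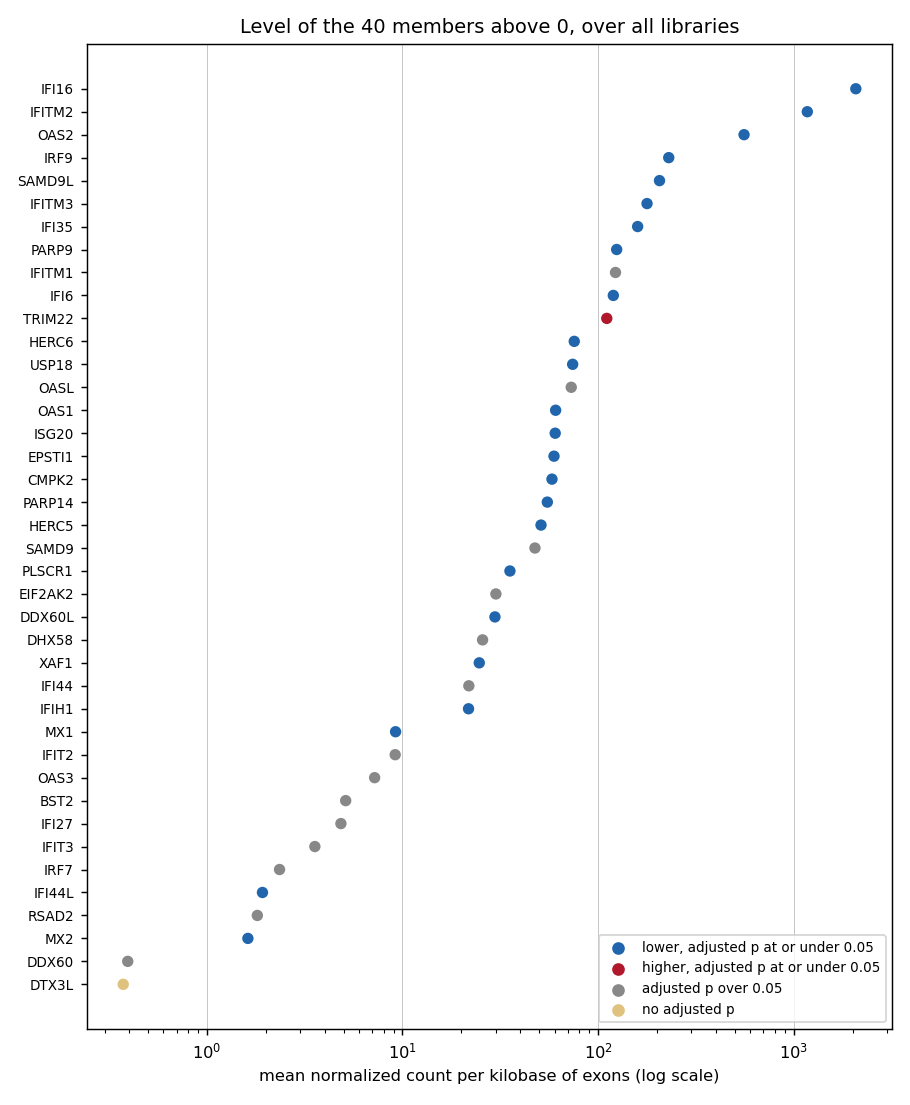
Mean normalized count per kilobase of exons (x axis, log scale) of the 40 members above 0, sorted by level and coloured by the result of the comparison. IFI16, IFITM2 and OAS2 stand above the rest, and DDX60 and DTX3L lie lowest, both under 1.

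Interferon-stimulated genes were mostly lower in the numerator group. Of the 39 members with an adjusted p in the authors' deposited table, 24 (61.5%) were lower at an adjusted p of at most 0.05 (Wald test with Benjamini-Hochberg adjustment), where 14.8% of all 13957 genes tested were. One rise passed, that of TRIM22 (1 of 39, where 14.7% of all genes tested rose), and 14 members did not pass. The median log2 fold change was -0.95 over the 39 members and 0 over all genes tested. Of the 40 members with a fold change, 38 had a negative one. At least 2-fold falls were seen for 14 of the 39 members, against 3.91% of all genes tested. Precision followed level, with a median standard error of 0.17 for members with a mean of at least 72.0 and 0.97 for those tested below it. Among the 28 members with a mean of at least 72.0, 22 were lower, 1 was higher and 5 did not pass, where 21.6% of all genes at that level were lower. Against a 1.5-fold change 14 members were lower, and 15 were when all errors were widened by a factor of 2.03, the spread of the test statistics over all genes. Of all genes tested, 2.31% and 4.27% were lower in these settings.

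Cell-type markers outside the members moved in both directions, with rises that passed only among the myeloid and plasmacytoid dendritic markers. Of the 12 T-lymphocyte markers 10 were tested in the authors' deposited table, of which 8 were lower and 0 higher. Among all genes tested 14.8% were lower and 14.7% higher. The T-lymphocyte markers had a median log2 fold change of -0.46, and the summed mean of the list was 93407. CD5 and CD4 were near 0, with means of 1.87 and 1.83 in the authors' deposited table. NCAM1, the NK-cell marker that reached 72.0, was at -1.61 (SE 0.10). Of 2 B-cell markers tested, CD79B was lower at -2.37 (SE 0.43) with a mean of 26.8, and 0 were higher. Of the myeloid and plasmacytoid dendritic markers, 2 were lower and 2 higher of 6 tested. ITGAX, which also reached 72.0 with a mean of 754, was at 2.61 (SE 0.18). CSF1R, with a mean of 20.7, was at 4.20 (SE 0.76). The 2 lower ones were FCGR3A at -1.36 (SE 0.33) and LYZ at -6.02 (SE 1.93). Their means were 61.6 and 4.06 in the authors' deposited table. The part of these differences in the result for the members was not tested, and summed levels of the lists in each group were not analysed here. In bulk RNA, fewer cells of a type and less RNA per cell cannot be told apart.

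**Figure D3:**
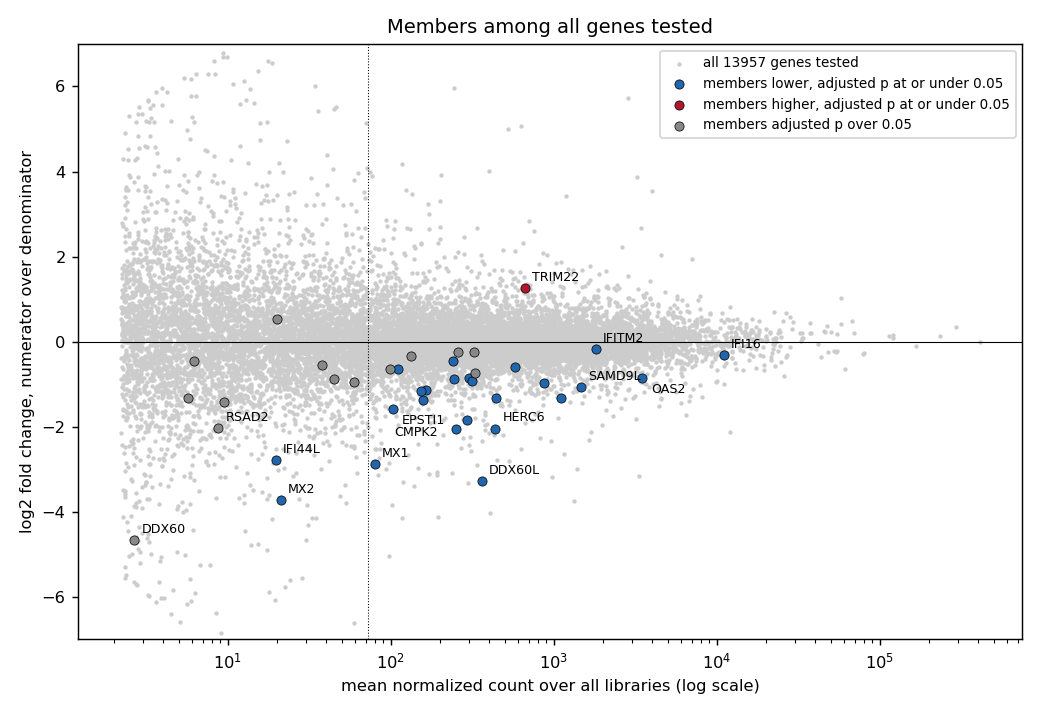
Log2 fold change (y axis, numerator over denominator) against the mean normalized count over all libraries (x axis, log scale), with the 13957 genes tested in grey and the 39 tested members in colour. Most coloured points lie below 0, TRIM22 lies above it at 1.26, and the dotted line marks a mean of 72.0; 12 genes fall outside the plotted range.

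The MX proteins are dynamin-like GTPases that trap the nucleoproteins and capsids of incoming viruses. Both genes, which lie 10.9 kilobases apart on chromosome 21 (MX2 from 41361943 to 41409390 and MX1 from 41420304 to 41459214, plus strand, GRCh38), were lower. MX1 had a mean normalized count of 79.4 and stood at -2.89 on the log2 scale (SE 0.46, adjusted p = 3.67e-09, Wald test) in the authors' deposited table, a level 7.40-fold lower. MX2 had a mean of 21.1 and stood at -3.73 (SE 0.78, adjusted p = 1.44e-05, Wald test) in the authors' deposited table. The 95% intervals of both changes overlapped, from -3.78 to -1.99 for MX1 and from -5.26 to -2.20 for MX2. The call of MX2 was lost with widened errors.

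IFIT proteins bind viral RNA that lacks the methylation of host caps and block its translation. None of the 2 tested IFIT genes passed. IFIT2, with a mean of 37.6, was at -0.55 with a 95% interval from -2.46 to 1.36 in the authors' deposited table. IFIT3, with a mean of 9.41, was at -1.43 with an interval from -5.11 to 2.25. Both intervals hold a 2-fold fall as well as a rise. The interval of IFIT2 overlapped those of MX1 and MX2 but not that of DDX60L (from -3.62 to -2.94), although these differences were not tested. IFIT1 carries 2 copies of the core in its promoter and IFIT3 carries 2, although IFIT1 was listed at 0.

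The OAS enzymes make the second messenger that switches on RNase L when they meet double-stranded RNA. OAS1 and OAS2 were lower by nearly the same amount. OAS2 (mean 3492) was at -0.87 (SE 0.08, adjusted p = 7.18e-25, Wald test), and OAS1, with a mean of 300.2, at -0.85 (SE 0.13, adjusted p = 4.12e-09, Wald test) in the authors' deposited table. OAS3, with a mean of 59.4, had a log2 fold change of -0.95 in the authors' deposited table, as large as the other 2, but its standard error of 0.43 kept it from passing (adjusted p = 0.0823, Wald test). OASL, which lacks the enzymatic activity and acts on RNA sensing, was at -0.24 with an interval from -0.56 to 0.07. That interval did not overlap those of OAS1 (from -1.11 to -0.58) and OAS2 (from -1.03 to -0.71), although the difference itself was not tested.

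IFITM proteins sit in membranes and block the fusion of viruses with the cell. Their estimates ran from -0.46 to -0.18. IFITM3 was at -0.46 (SE 0.13, adjusted p = 0.00198, Wald test) and IFITM2, with a mean of 1811, at -0.18 (SE 0.06, adjusted p = 0.0105, Wald test) in the authors' deposited table, a level 1.13-fold lower. IFITM1 was at -0.33 with an interval from -0.94 to 0.28. These values are uncertain, since the genes are close copies. Of the distinct runs of 31 bases in the annotated transcripts, IFITM2 shares 45.2% with other genes, IFITM3 36.4% and IFITM1 35.3%, mostly with one another.

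The helicases of this group sense viral RNA or assist the sensors. DDX60L showed the strongest fall of all members with a mean of at least 72.0. It lies on chromosome 4 from 168356735 to 168537786 on the minus strand (ENSG00000181381.13, GRCh38). With a mean of 361 it was at -3.28 (SE 0.17, adjusted p = 8.4e-77, Wald test) in the authors' deposited table, a level 9.69-fold lower and the 9th largest fall of 1797 genes called lower at that level. Its neighbour DDX60 also had a large negative estimate, -4.68, but with a mean of 2.66 its interval ran from -9.81 to 0.46 in the authors' deposited table. IFIH1, which encodes the long RNA sensor MDA5, was at -0.65 (SE 0.22, adjusted p = 0.0152, Wald test). DHX58, which encodes its partner LGP2, was at -0.64 (SE 0.27) and did not pass (adjusted p = 0.0631, Wald test). IFIH1 and DHX58 thus had nearly the same estimate on either side of the threshold.

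PARP9 and PARP14 are members of the ADP-ribosyltransferase family, and PARP9 works with the ubiquitin ligase DTX3L. PARP9, with a mean of 1113, was at -1.33 (SE 0.07, adjusted p = 4.9e-76, Wald test) in the authors' deposited table, the second most certain fall among the members after DDX60L. PARP14 was at -0.61 (SE 0.24, adjusted p = 0.0369, Wald test), and its interval, from -1.07 to -0.14, lay above that of PARP9, from -1.47 to -1.19. DTX3L had a mean of 2.19 and no adjusted p in the authors' deposited table, with an interval from -4.97 to 4.30, so that the shared promoter region could be followed in 1 of its 2 directions only.

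SAMD9 and SAMD9L restrict poxviruses and restrain growth of blood cells. SAMD9L, with a mean of 1470.4, was at -1.07 (SE 0.10, adjusted p = 4.83e-23, Wald test) in the authors' deposited table. SAMD9 was at -0.74 (SE 0.33, adjusted p = 0.0799, Wald test) and did not pass, and its interval, from -1.38 to -0.09, overlapped that of SAMD9L.

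ISG15 is a ubiquitin-like protein, HERC5 is the ligase that attaches it in human cells, and USP18 removes it and also blocks the interferon receptor. ISG15 itself was listed at 0 in the authors' deposited table. HERC6, a relative of HERC5, was at -2.05 (SE 0.18, adjusted p = 4.04e-28, Wald test) in the authors' deposited table, a level 4.13-fold lower. USP18 was at -1.38 (SE 0.21, adjusted p = 9.72e-10, Wald test), although 28.8% of its runs of 31 bases also occur in USP41. HERC5 was at -0.87 (SE 0.34, adjusted p = 0.0403, Wald test) in the authors' deposited table. The intervals of HERC6 (from -2.40 to -1.69) and HERC5 (from -1.54 to -0.20) did not overlap. This was so for no other of 13 pairs of consecutive members within 200 kilobases and with both changes estimated. PARP9 and PARP14, with DTX3L between them, were not paired, and their intervals did not overlap either. Pairs that hold DDX60, RSAD2, IFIT3 or DTX3L overlap readily, since these genes have low means and wide intervals.

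Of the transcription factors, IRF9, the DNA-binding subunit of the complex, was at -0.97 (SE 0.11, adjusted p = 1.14e-17, Wald test) with a mean of 872 in the authors' deposited table. Its transcripts share 45.2% of their runs of 31 bases with the overlapping gene AL136295.5 on the same strand, so its value is uncertain. IRF7, which drives the production of interferon, had a mean of 6.18 and an interval from -2.50 to 1.59.

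Among the other effectors, CMPK2, a mitochondrial nucleotide kinase, was at -2.05 (SE 0.16, adjusted p = 6.4e-36, Wald test) in the authors' deposited table. RSAD2, which encodes the antiviral enzyme viperin and lies beside CMPK2, had nearly the same estimate, -2.04, but a mean of 8.76 and an interval from -4.18 to 0.10. ISG20, an exonuclease, was at -1.32 (SE 0.13), PLSCR1, a phospholipid scramblase, at -1.17 (SE 0.21) and XAF1, which promotes apoptosis, at -1.14 (SE 0.21), and all 3 were lower in the authors' deposited table. For XAF1, 38.3% of its exon bases overlap an antisense gene, PRAL, and whether strand was used in counting is not given in the sources used here. EIF2AK2, the kinase PKR that stops translation, was at -0.24 with an interval from -0.62 to 0.14. BST2, which tethers budding viruses, had a mean of 5.73 and an interval from -3.27 to 0.60.

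TRIM22, a ubiquitin ligase that restricts retroviruses, was the only member that was higher. Its annotated span (ENSG00000132274.15, plus strand, GRCh38) is 5689689 to 5737089 of chromosome 11. With a mean of 667 it was at 1.26 (SE 0.14, adjusted p = 6.11e-18, Wald test) in the authors' deposited table, a level 2.39-fold higher. Of its runs of 31 bases, 10.0% are shared with the overlapping gene OR56B1.

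The remaining members carry names given for their induction. EPSTI1 was at -1.86 (SE 0.14, adjusted p = 1.26e-39, Wald test) and IFI6, a mitochondrial inhibitor of apoptosis, at -1.59 (SE 0.26, adjusted p = 1.63e-08, Wald test) in the authors' deposited table. IFI44L, with a mean of 19.7, was at -2.79 (SE 0.70), and its call was lost with widened errors. IFI44, with a mean of 44.5, was at -0.89 (SE 0.42, adjusted p = 0.0960, Wald test) and did not pass. IFI35 was at -0.93 (SE 0.14). IFI16 was lower by the small amount of -0.32 (SE 0.05, adjusted p = 1.12e-09, Wald test) at its high level. IFI27 had the only other positive estimate, 0.53, with an interval from -0.67 to 1.74 in the authors' deposited table.

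**Figure D4:**
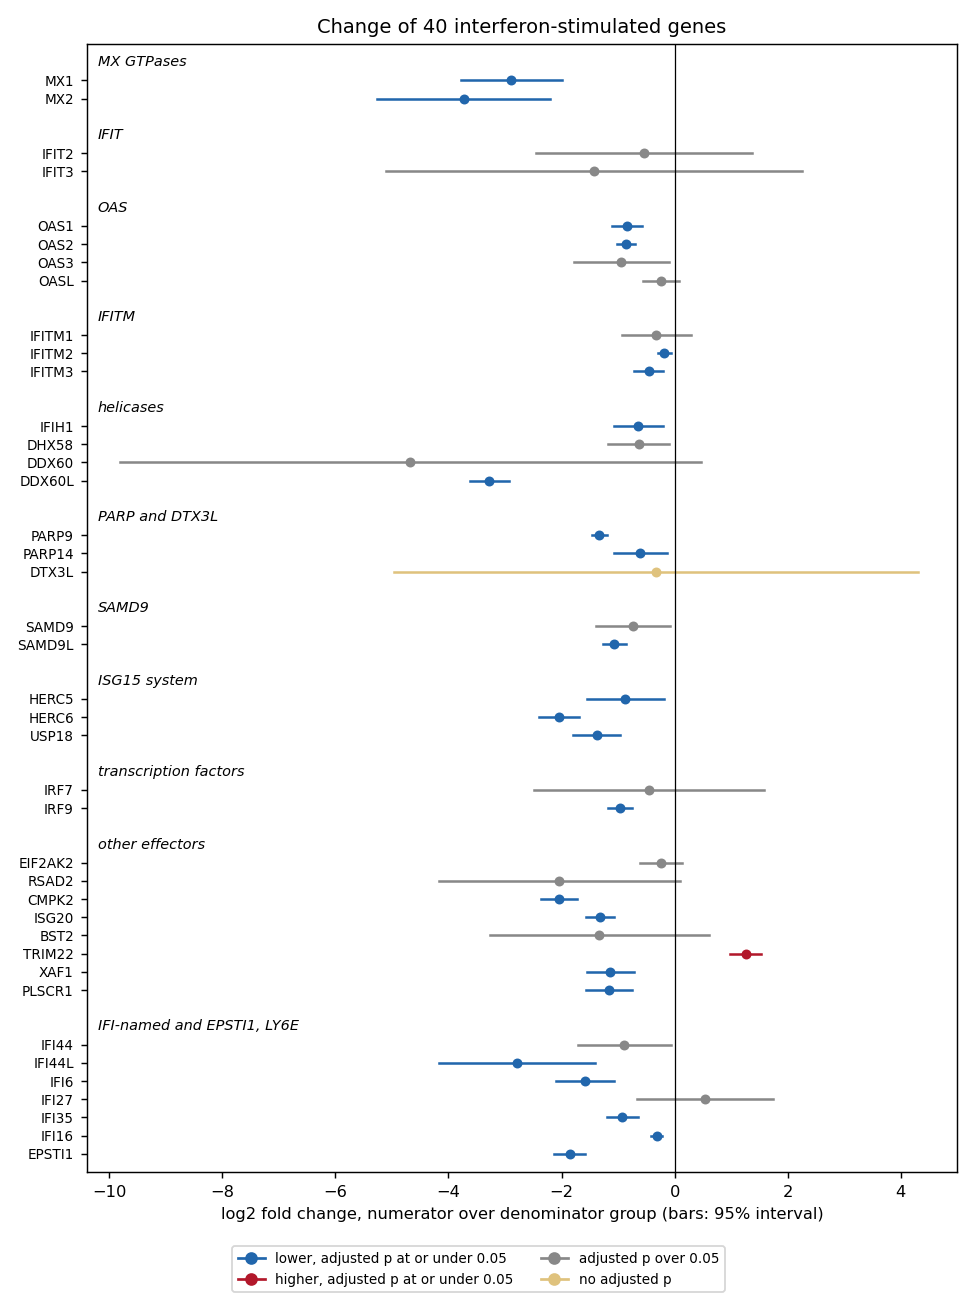
Log2 fold change (x axis, points) with its 95% interval (bars) for the 40 members with a value, grouped by family. The MX genes and DDX60L lie farthest to the left of the members that passed, the IFITM genes close to 0, and TRIM22 alone passed to the right; wide bars belong to genes of low mean.

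Of the 22 tested members with a match in a promoter 12 were lower, and of the 8 tested members with a promoter and no match all 8 were, among them CMPK2, HERC6 and SAMD9L. The median log2 fold change was -1.25 for the former and -1.02 for the latter, the reverse order of the counts. Of the 10 members with a match that did not pass, 7 had a mean under 72.0 (IFIT3, OAS3, DDX60, RSAD2, BST2, IFI44 and IFI27), whereas 0 of the 8 with no match did. These values describe the sequence windows only. Outside the members, 84 of 394 tested genes with a match (21.3%) were lower and 64 (16.2%) higher. Of 9504 tested genes with none, 1490 (15.7%) were lower and 1531 (16.1%) higher. With at least 2 matches, 1 of 25 genes (4%) was lower and 4 (16%) were higher. The genes of the pathway lists were not left out of these counts.

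The genes upstream of the members did not move as one. No interferon gene was measurable, with 4 of the 7 in the authors' deposited table listed at 0 and the highest mean, that of IFNW1, at 0.70; IFNB1, IFNG and IFNL1 were not analysed here. Of 5 receptor genes tested, IFNAR2, a subunit of the type I receptor, was at 0.35 (SE 0.05, adjusted p = 2.7e-13, Wald test) and IFNGR1, of the interferon gamma receptor, at -0.36 (SE 0.11, adjusted p = 0.00652, Wald test) in the authors' deposited table. IFNAR1 was not analysed here. None of 3 kinase genes passed, with TYK2 at -0.18 (SE 0.08, adjusted p = 0.0640, Wald test) and JAK1, at a mean of 20.3, at -0.58 (SE 0.55).

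Among transcription factors outside the members, STAT2, a partner of IRF9 in the complex, was at -0.83 (SE 0.14, adjusted p = 4.04e-08, Wald test) in the authors' deposited table, beside the fall of IRF9. IRF1, an activator induced by interferon gamma, was at -0.67 (SE 0.06) and IRF5 at 1.35 (SE 0.33) in the authors' deposited table.

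Where 14.8% of all genes tested were lower and 14.7% higher, sensors and adaptors had 3 of 11 tested lower and 0 higher. They were ZBP1, a sensor of Z-form nucleic acid, at -1.75 (SE 0.44), MAVS, the adaptor of the RNA sensors, at -1.59 (SE 0.35), and MYD88, the adaptor of Toll-like receptors, at -1.08 (SE 0.33) in the authors' deposited table. RIGI, an RNA sensor, had an estimate of -1.63 with an interval from -4.19 to 0.93. Of 5 negative regulators, SOCS3 was higher at 0.67 (SE 0.14) and 0 were lower. Among the guanylate-binding proteins, typical targets of interferon gamma, 2 of 5 were lower by small amounts, GBP5 at -0.43 (SE 0.04) and GBP2 at -0.20 (SE 0.08) in the authors' deposited table.

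A wider list of 40 interferon-induced genes that are not members had 13 of 34 tested genes lower and 3 higher. Among all genes tested 14.8% were lower and 14.7% higher. The median log2 fold change of the list was -0.36. The largest changes that passed were falls of TDRD7 at -2.90 (SE 1.00), HELZ2 at -2.20 (SE 0.19) and PARP12 at -1.12 (SE 0.10), and, in the authors' deposited table, a rise of CXCL11, a chemokine, at 2.55 (SE 0.67). Of these, TDRD7 and CXCL11 had means under 72.0, at 5.99 and 15.3 in the authors' deposited table. The means of HELZ2 and PARP12 were 429 and 710. TRIM34 at 0.53 (SE 0.12) and TRIM5 at 0.30 (SE 0.11) were the other 2 higher genes of the list.

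**Figure D5:**
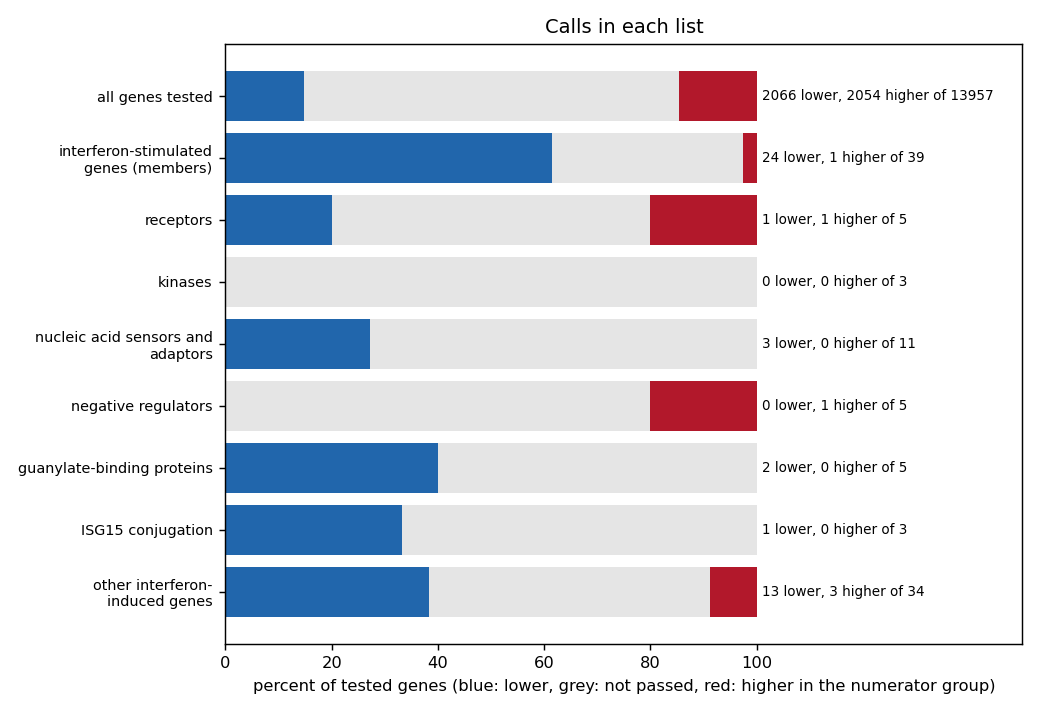
Share of tested genes (x axis, percent) that were lower (blue), higher (red) or did not pass (grey), for all genes tested, the members and 7 lists of pathway genes. The members have 24 of 39 lower, and receptors have 1 lower and 1 higher of 5.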

How the data were processed

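The 6 RNA-seq libraries were prepared with a SMARTer kit, per the labels' protocols. The submitters' processing notes name STAR, Salmon and hg38 without role or version. Which program wrote the table is not given in the sources used here. Its columns, per the file headers, carry the names of a DESeq2 results table. They hold the authors' mean normalized count over all libraries (treated as a signal), a log2 fold change with its standard error on the log2 scale, a Wald statistic (a score), and a deposited p-value with its adjusted value. Library depths are unknown. Since the table analysed has no value per sample, the planned count models could not be run, and the authors' comparison was taken as deposited.

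Symbols were matched without version (33483 identifiers), and positions and exons taken from GENCODE 29 on GRCh38 (33582 identifiers). Calls use an adjusted p of at most 0.05, and 95% intervals are normal. Members, lists and tests were chosen with earlier results of these data known. All members are named, and of each pathway list up to 4 genes that passed, by size, plus STAT2, IFNAR1, IFNAR2, IRF1, JAK1 and TYK2 (another gene of this rule is not reported here); TRIM5, TRIM34, RIGI, the 200-base windows and the checks of shared sequence, neighbours and promoter matches were added after values were seen. Alternatives were a 1.5-fold threshold, errors widened by a factor of 2.03, centring and 2 other filters on low values. An adjusted p of 0.01 and protein-coding genes only were also used. The adjustment and the tests against no change and a 1.5-fold change were first run on simulated data, the other alternatives were not. Shared sequence was counted over runs of 31 bases in GENCODE 29 transcripts. Python 3.11.15, numpy 2.4.6, pandas 2.3.3, scipy 1.17.1 and matplotlib 3.10.9 were used.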

Additional observations from a re-analysis of the deposited data

How the results depend on the processing

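The number of members lower in the numerator group was 24 as deposited. It was 14 in a test against a 1.5-fold change and 15 when errors were widened by the factor given above, where 2.31% and 4.27% of all genes tested were lower. It was 24 with centred fold changes (a shift of 0.01) and with protein-coding genes only, where 14.3% and 16.3% of all genes were lower. It was 20 at an adjusted p of 0.01 (11.3% of all genes) and 22 of 40 with no filter on low values (8.99% of all genes). Where genes under a mean of 72.0 were dropped it was 23 of 28, against 23.2% of all genes. TRIM22 was the only higher member in all 7 alternatives. The alternatives keep the deposited fold changes, apart from centring, so they do not test directions. In all 7, 12 members were lower: CMPK2, DDX60L, EPSTI1, HERC6, IFI6, IRF9, ISG20, MX1, OAS2, PARP9, SAMD9L and USP18. The call of HERC5 and PARP14 was lost in 4 of them, and DHX58 passed where low genes were dropped (adjusted p = 0.0441, Wald test). No paired analysis was possible because the table analysed holds no values per sample, and leaving out replicates, a replicate block and other tools or normalizations were not run for the same reason. Of the 11 tested members with a mean under 72.0, 2 passed (MX2 and IFI44L), both lower. Of all 13957 genes tested 2066 were lower, and of the 8312 with a mean of at least 72.0, 1797 were. Library depths are unknown.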

Other observations

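TRIM22 has relatives beside it on chromosome 11, which were looked up after its rise had been seen. TRIM34 (5619764 to 5644398, plus strand, GRCh38) had a mean of 384 and was at 0.53 on the log2 scale (SE 0.12, adjusted p = 3.03e-05, Wald test) in the authors' deposited table. TRIM5, a restriction factor of retroviruses that spans TRIM22 on the opposite strand (5663557 to 5938619), had a mean of 722 and was at 0.30 (SE 0.11, adjusted p = 0.0239, Wald test) in the authors' deposited table. TRIM6 had a mean of 3.21 and did not pass (adjusted p = 0.765, Wald test), and the read-through gene TRIM6-TRIM34 was listed at 0. Apart from TRIM22, for which the group was looked up, the genes that passed were TRIM34 and TRIM5. Both were higher in the numerator group, the reverse of most members, where 14.7% of all genes tested were higher.

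Genes outside the members and pathway lists that held the response element core in a promoter and changed most, with a mean of at least 72.0, were picked after their values were seen. Falls were led by PTCH1 at -4.03 (SE 0.25), the chemokine receptor gene CCR6 at -2.25 (SE 0.24) and PRKCQ, a kinase of T-cell receptor signalling, at -1.79 (SE 0.10) in the authors' deposited table. Rises were led by GLUL, which encodes glutamine synthetase, at 3.53 (SE 0.11) and HHLA2 at 2.23 (SE 0.06) in the authors' deposited table. Each held 1 match.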
